A study of Caenorhabditis elegans with 4 samples.

Results

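The genes described here are the cytochrome P450 genes of *C. elegans* that carry a *cyp* symbol and were measurably expressed. They were chosen as the rows of the deposited count table whose gene identifier has a WormBase symbol starting with *cyp-* and a digit, and whose counts summed to at least 40 reads over the 4 libraries. Of the 20380 genes in the table, 73 had such a symbol and 63 of these reached the minimum. The 10 others were *cyp-13A4*, *cyp-13A7*, *cyp-13A8*, *cyp-13A11*, *cyp-33B1*, *cyp-33C1*, *cyp-33C11*, *cyp-34A1*, *cyp-35B2* and *cyp-35B3*. The members just inside the minimum were *cyp-13A3* with 43 reads, *cyp-33C6* with 47 and *cyp-33C2* with 48, and the genes just outside it were *cyp-13A7* and *cyp-33C11* with 32 reads each. By their symbols the 63 members fall into *cyp-33* (15 genes), *cyp-13* (9), *cyp-35* (8), *cyp-34* (7), *cyp-14* (5), *cyp-25* (5), *cyp-31* with *cyp-32* (4), *cyp-29* (3) and 7 others of smaller kinds (*cyp-23A1*, *cyp-36A1*, *cyp-37A1*, *cyp-37B1*, *cyp-42A1*, *cyp-43A1* and *cyp-44A1*).

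Cytochrome P450 proteins are heme-containing monooxygenases that insert an oxygen atom into a small lipophilic substrate. Those of the endoplasmic reticulum receive their electrons from NADPH through a common reductase, which is EMB-8 in *C. elegans*, with cytochrome b5 as an additional donor, whereas the mitochondrial ones use another electron chain. Worm P450s of the *cyp-14*, *cyp-33*, *cyp-34*, *cyp-35* and *cyp-36* kinds resemble the vertebrate CYP2 family, those of *cyp-13* and *cyp-25* the CYP3 family, and those of *cyp-29*, *cyp-31*, *cyp-32*, *cyp-37* and *cyp-42* the CYP4 family. Members of *cyp-35* are known for their induction by foreign compounds in the intestine, other members oxidise polyunsaturated fatty acids to eicosanoids, and a few make lipids or signals needed in development.

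All 4 libraries came from whole animals of the wild-type strain N2, grown at 20°C and fed from the L1 to the L4 stage on bacteria that deliver double-stranded RNA, with no allele or transgene. The mock animals received bacteria with the empty vector L4440 for 40 to 42 h, and the animals labelled *xrn-2(RNAi)*, called labelled RNAi from here on, received a clone against *xrn-2*, the gene of a nuclear 5′ to 3′ exoribonuclease, for 48 to 52 h. Both were collected at the mid-L4 stage, judged by the shape of the vulva. Each condition was sequenced as polyadenylated RNA in 2 samples, replicates 1 and 2. The study compared each library with a time course of L4 development. It found the libraries of replicate 1 well matched in time and those of replicate 2 less so. Both libraries of replicate 2 matched later time points than those of replicate 1. The study therefore focused on replicate 1, since poor matching in time may produce false positives and negatives. The time on food was longer in both samples labelled RNAi, so RNAi and time cannot be told apart. The labels give the replicates as separate samples and nothing more of their origin, so p-values measure the spread between these samples. The parts of developmental time and of technical variation in that spread were not tested.

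Total counts per library lay between 41105706 and 48451504. Scaled counts below are counts scaled to the mean library total of 43719995, and a log2 fold change within a replicate is the log2 of the scaled count plus 8 in the library labelled RNAi less that in mock of the same replicate. Tests over both replicates used edgeR's quasi-likelihood test with the replicate as a block, TMM scaling and Benjamini-Hochberg adjustment over 16178 genes. With library totals as the scale, the median of the 16196 genes with at least 40 reads lay at log2 0.17 for replicate 1 and at 0.37 for replicate 2, while TMM scaling brought both to within 0.01 of 0. Within-replicate values are therefore to be read against these medians.

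The targeted gene was not lower in the libraries labelled RNAi. In mock, *xrn-2* had scaled counts of 4247 and 6192 in replicates 1 and 2, and those labelled RNAi had 5265 and 6032. edgeR gave a log2 fold change of -0.13 for it (standard error 0.28, adjusted p = 0.897). The study reports that *xrn-2* mRNA accumulates when XRN2 is inactivated. It also reports that RNAi against *xrn-2* slowed growth and raised a reporter of the *xrn-2* operon. The mRNA level therefore does not show whether XRN2 protein was depleted in these samples, and the conditions are given as labelled.

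The mock libraries stood apart from each other, at either end of the late L4 and adult list and of the hypodermal list. A list of late L4 and adult genes (vitellogenins and adult collagens) summed to a scaled count of 1494 in mock replicate 1, 48357 and 392502 in the libraries labelled RNAi of replicates 1 and 2, and 2150480 in mock replicate 2. *col-7* of this list was at 0 in all 4 libraries. Hypodermal genes, most of them cuticle collagens, summed to 220928, 108115, 50797 and 2827 in the same order. The sum rested on *sqt-3*, *bli-1*, *rol-6* and *dpy-7*, while 2 of the 6 genes went another way, with *elt-3*, a transcription factor gene, at 1248, 634, 371 and 1861 and the collagen gene *col-10* at 364, 510, 1289 and 255. Among the 63 *cyp* genes, the Pearson correlation of log2 scaled counts was 0.61 between the mock libraries and 0.84 between those labelled RNAi. Over all genes these were 0.84 and 0.95. For the *cyp* genes, mock replicate 1 had 0.81 and 0.53 with the libraries labelled RNAi of replicates 1 and 2, and mock replicate 2 had 0.77 and 0.71. These are descriptions over genes that share libraries and are not independent. Markers of intestine, body muscle, neurons, germline and sperm were detected in every library, apart from *msp-10*, which had a single read.

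The *cyp* genes took a small and uneven share of the RNA. Their reads made up 0.106% of mock replicate 1 and 0.0466% of mock replicate 2, and libraries labelled RNAi had 0.0637% and 0.0673%. The gene with the most *cyp* reads was *cyp-35A2* in mock replicate 1 (25.7% of the *cyp* reads), *cyp-31A2* in mock replicate 2 (11.4%) and *cyp-14A5* in both libraries labelled RNAi (16.7% and 26.5%). On a scale that takes gene length into account, reads per kb of exon per 1000000 counted reads averaged over the 4 libraries, the highest levels were 62.7 for *cyp-35A2*, 52.3 for *cyp-14A5*, 31.5 for *cyp-35C1*, 22.5 for *cyp-31A2* and 22.3 for *cyp-35A3*. At the other end, *cyp-13A3* and *cyp-33C6* had levels of 0.150 and 0.151.

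**Figure D1:**
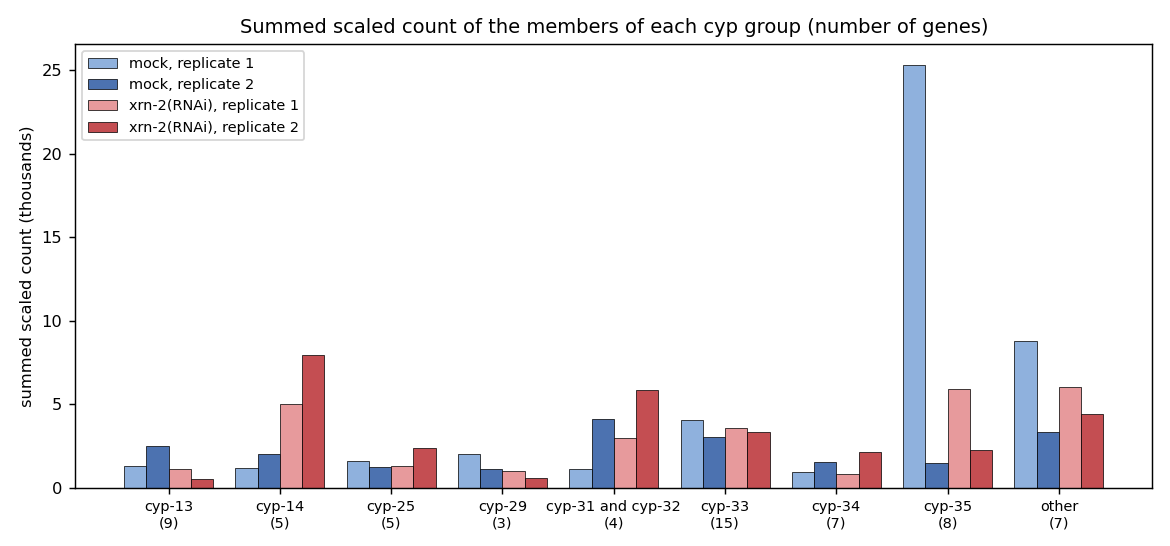
Summed scaled count of each *cyp* group (in units of 1000, vertical axis from 0) in the 4 libraries, with the number of genes in parentheses; each bar is 1 library and there are no error bars. The *cyp-35* bar of mock replicate 1 reaches 25309 against 1494 in mock replicate 2, and the *cyp-14* bars are higher in both libraries labelled RNAi.

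No *cyp* gene passed an adjusted p of 0.05 between the conditions by edgeR, whereas 15 did by DESeq2. edgeR tested 60 of the 63 members, and 3 members (*cyp-13B2*, *cyp-14A3* and *cyp-34A7*) did not pass its filter, which asks for enough reads in at least 2 libraries. Of the 60, 0 were called, beside 0% of the 16178 genes tested. At an unadjusted p under 0.05 there were 12 members (20% of those tested, against 12.5% of all genes), 3 of them higher (6.66% of all genes) and 9 lower (5.83% of all genes). The split depended on the scaling, with 6 higher and 4 lower when edgeR used library totals in place of TMM. Left without mock replicate 2, edgeR had 20 members at an unadjusted p under 0.05, and 12, 6 and 2 when mock replicate 1 or the library labelled RNAi of replicate 1 or 2 was left out, with 0 called each time. DESeq2, which estimates the spread differently, called its 15 members (25% of those tested) at an adjusted p under 0.05, 6 higher and 9 lower, beside 17% of all genes (8.07% higher and 8.9% lower). Without a filter on low counts DESeq2 called 6 members, 2 higher (beside 2.69% of all genes) and 4 lower (1.53%), or 4.23% of all genes in either direction. A gene that edgeR did not call is not shown to be unaltered.

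The 3 higher members at an unadjusted p under 0.05 by edgeR were *cyp-14A5*, *cyp-25A4* and *cyp-33D3*, and the 9 lower ones were *cyp-13A2*, *cyp-14A1*, *cyp-14A2*, *cyp-25A2*, *cyp-29A2*, *cyp-29A3*, *cyp-33C9*, *cyp-33E2* and *cyp-43A1*. DESeq2 called the same 9 lower members, and beside the same 3 higher members it called *cyp-32B1*, *cyp-33C5* and *cyp-37B1*. The 6 members called by DESeq2 without a filter were *cyp-14A5* and *cyp-33D3* on the higher side and *cyp-13A2*, *cyp-14A1*, *cyp-25A2* and *cyp-29A3* on the lower side.

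Within the replicates, 6 members were at least 2-fold higher in both pairs of libraries (9.52% of the 63, beside 7.46% of all genes with at least 40 reads) and 4 were at least 2-fold lower in both (6.35% beside 2.2%). In replicate 1 alone 11 were at least 2-fold higher (beside 12.9%) and 15 lower (6.42%), and in replicate 2 alone 20 were higher (22.4%) and 8 lower (6.24%). These counts have no test, as each pair is 1 library against 1. With TMM scaling, 4 members were higher (beside 5.85%) and 6 were lower (beside 3.39%). The higher members with library totals were *cyp-14A5*, *cyp-25A4*, *cyp-32B1*, *cyp-33C5*, *cyp-33D3* and *cyp-37B1*, of which *cyp-32B1* and *cyp-37B1* dropped below 2-fold in replicate 1 with TMM. The lower members were *cyp-13A2*, *cyp-14A1*, *cyp-25A2* and *cyp-29A3*, to which TMM added *cyp-14A2* and *cyp-33C9*.

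*cyp-14A5* had the highest log2 fold change of any member in replicate 1. Its scaled counts were 325 and 1505 in the mock libraries of replicates 1 and 2, and 4652 and 7786 in those labelled RNAi, or 915 ± 834 against 6219 ± 2216 (SD, n = 2). Both libraries labelled RNAi lay above both mock libraries, and within a replicate the ratio was 14.3-fold in replicate 1 and 5.17-fold in replicate 2. The log2 fold change was 2.83 (standard error 0.54, adjusted p = 0.260, edgeR). By DESeq2 the adjusted p for *cyp-14A5* was 2.59e-07, and over all alternatives it ran from that value to 1.00.

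*cyp-33D3* and *cyp-25A4* were also higher in both pairs. For *cyp-33D3* the scaled counts were 30.8 and 6.25 in mock against 191 and 155 in those labelled RNAi, with a log2 fold change of 3.26 (standard error 0.73, adjusted p = 0.279, edgeR). For *cyp-25A4* they were 224 and 151 in mock against 556 and 1649 in those labelled RNAi, with 2.11 (standard error 0.65, adjusted p = 0.367, edgeR). The conditions did not overlap for either gene, and the 2 genes differed in which of the libraries labelled RNAi was the higher.

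Of the other members that were higher in both pairs, *cyp-37B1* differed most between the replicates. It had scaled counts of 137 and 12.5 in mock against 300.5 and 562 in those labelled RNAi, so that the within-replicate log2 fold change was 1.09 in replicate 1 and 4.80 in replicate 2. Exons of *cyp-37B1* overlap those of a gene on the opposite strand, and whether the counting used the strand is not stated. *cyp-32B1* had scaled counts of 244 and 92.6 in mock against 522 and 875 in those labelled RNAi. Both genes were lowest in mock replicate 2, the library with the highest sum of late L4 and adult genes, whose part in these differences was not tested. *cyp-33C5* was more even, with scaled counts of 63.8 and 111 in mock against 156 and 332 in those labelled RNAi, log2 fold changes of 1.19 and 1.51 in the replicates and 1.16 over both (standard error 0.44, adjusted p = 0.432, edgeR).

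On the lower side, *cyp-29A3*, a P450 known to oxidise polyunsaturated fatty acids, had the lowest edgeR log2 fold change of the 60 members tested. Its scaled counts were 271 and 406 in mock against 55.0 and 38.3 in those labelled RNAi, or 339 ± 95.3 against 46.7 ± 11.8 (SD, n = 2). Mock was 4.93-fold higher in replicate 1 and 10.6-fold higher in replicate 2, and the log2 fold change was -3.11 (standard error 0.59, adjusted p = 0.260, edgeR). The conditions did not overlap.

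*cyp-13A2* and *cyp-14A1* were likewise lower in both libraries labelled RNAi. Scaled counts of *cyp-13A2* were 827 and 667 in mock against 237 and 112 in those labelled RNAi, with a log2 fold change of -2.46 (standard error 0.45, adjusted p = 0.255, edgeR), the smallest adjusted p among the members. Scaled counts of *cyp-14A1* were 155 and 166 in mock against 43.3 and 38.3 in those labelled RNAi, with a log2 fold change of -2.24 (standard error 0.50, adjusted p = 0.279, edgeR). Neither gene differed between replicates of 1 condition by as much as between the conditions.

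*cyp-25A2* was lower to a different degree in the replicates. It had scaled counts of 942 and 480 in mock against 407 and 58.5 in those labelled RNAi, with log2 fold changes of -1.20 and -2.87. *cyp-33C9* stood just short of 2-fold with library totals, with scaled counts of 958 and 753 in mock against 522 and 375 in those labelled RNAi and an edgeR log2 fold change of -1.21 (standard error 0.33, adjusted p = 0.327). For both genes the conditions did not overlap.

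**Figure D2:**
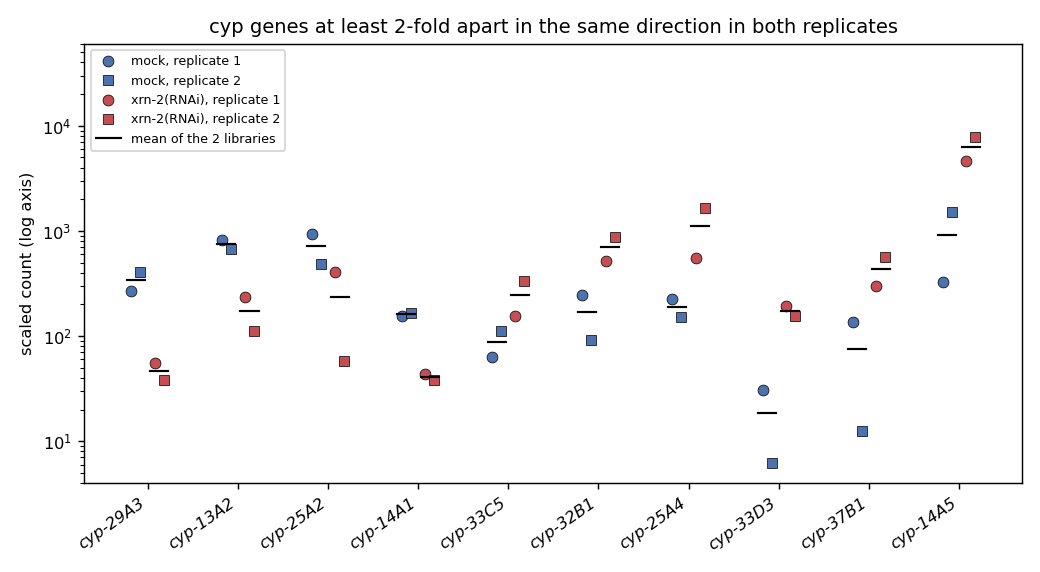
Scaled count (log axis) of the 10 *cyp* genes that were at least 2-fold apart in the same direction in both replicates; each point is 1 library and the black lines are means of 2 libraries. For *cyp-29A3* the mock points are at 271 and 406 and the points labelled RNAi at 55.0 and 38.3, and for *cyp-14A5* the order is turned around.

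Across all members the replicates shared only part of the pattern. In replicate 1 the log2 fold changes ran from -3.41 to 3.80 with a median of -0.13, and in replicate 2 from -3.75 to 4.80 with a median of 0.21. With TMM scaling the medians were -0.30 and -0.13. Across the 63 genes, which are not independent, Pearson's r between the replicates was 0.31 and Spearman's rho 0.41, beside 0.36 and 0.33 across all genes with at least 40 reads. Members were above 0 in both replicates in 20 cases (31.7%, beside 49.1% of all genes), below 0 in both in 18 (28.6%, beside 16.6%) and of opposite sign in 25 (39.7%, beside 34.3%). TMM scaling gave 15 above 0 (beside 30.1%) and 24 below 0 (beside 29.6%).

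Counted by libraries that do not overlap, both libraries labelled RNAi were above both mock libraries for 15 members (23.8%, beside 35.5% of all genes) and below both for 11 (17.5%, beside 10.3%). With TMM scaling these were 12 members (beside 19.6%) and 16 members (beside 20%). For another 16 members (25.4%, beside 21.5%) both libraries labelled RNAi lay between the mock libraries, with mock replicate 1 highest for 11 (beside 16.7%) and mock replicate 2 highest for 5 (beside 4.8%).

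**Figure D3:**
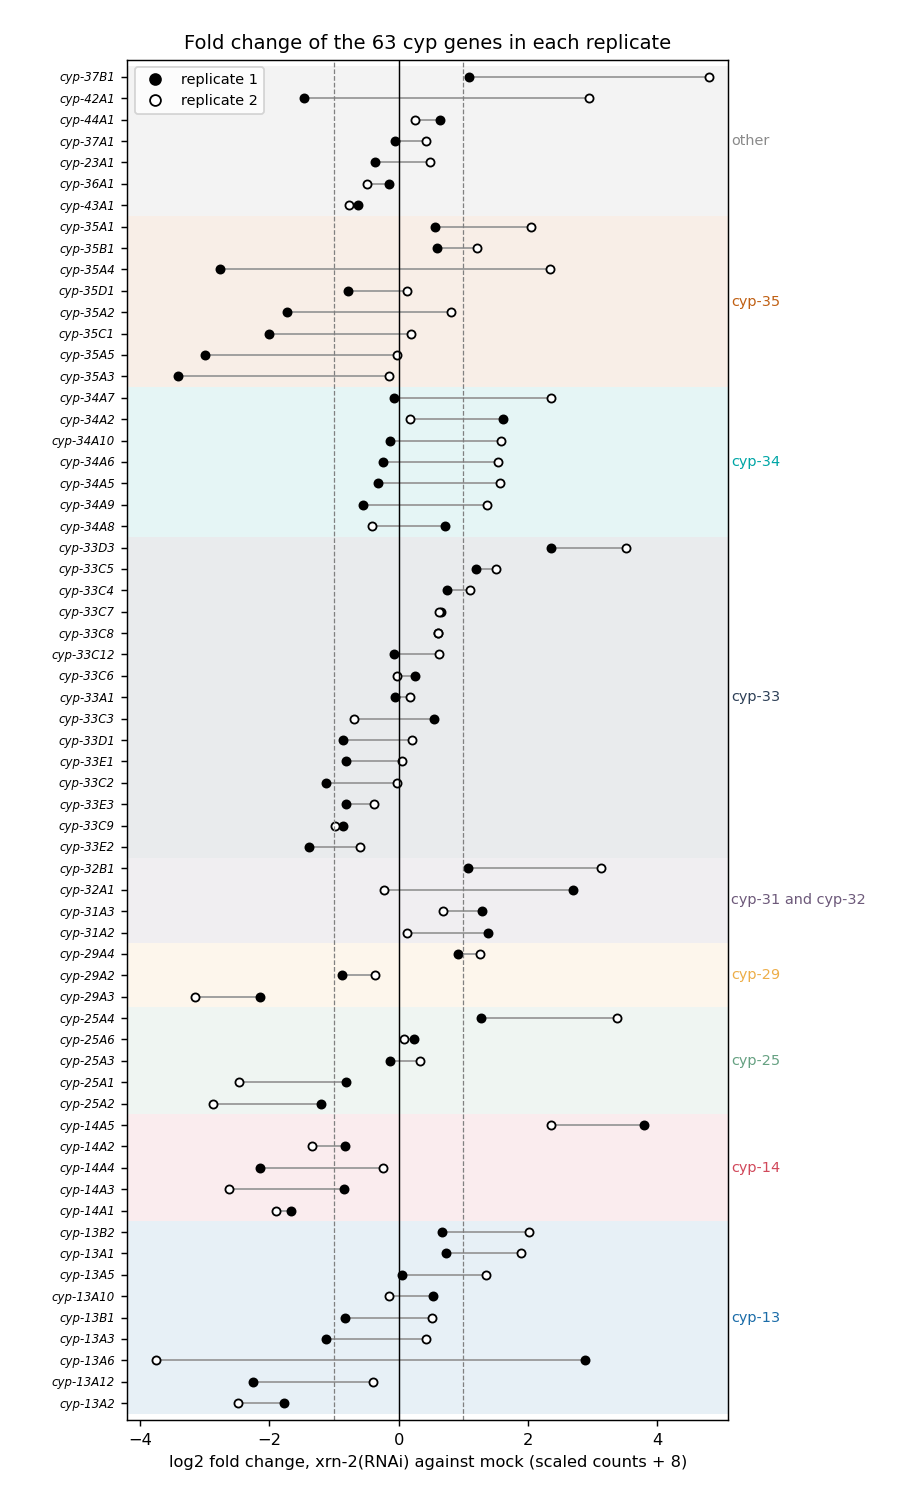
Log2 fold change of each of the 63 *cyp* genes, grouped by symbol, in replicate 1 (filled) and replicate 2 (open), each from 1 library per condition with 8 added to the scaled counts. Dashed lines mark 2-fold; the filled points of *cyp-35* reach -3.41 whereas the open points of the group do not go below -0.15, and those of *cyp-14* are below 0 for 4 of 5 genes in both replicates.

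The *cyp-14* genes were divided. *cyp-14A1*, *cyp-14A2* and *cyp-14A3* follow each other without another gene between them in the WBcel235 gene order, and *cyp-14A4* and *cyp-14A5* lie elsewhere. All but *cyp-14A5* had a log2 fold change below 0 in both replicates, and the medians of the 5 genes were -0.85 and -1.34 (further below 0 with TMM, at -1.71 in replicate 2). *cyp-14A2* had scaled counts of 508 and 269 in mock against 282 and 101 in those labelled RNAi. The conditions overlapped by a single library with library totals and not with TMM. Its edgeR log2 fold change was -1.40 (standard error 0.44, adjusted p = 0.372). *cyp-14A3* was sparse, with 6 and 52 reads in mock against 0 and 2 reads in those labelled RNAi. *cyp-14A4* had scaled counts of 158 in mock replicate 1 and 29.8, 14.6 and 11.1 in the library labelled RNAi of replicate 1, mock replicate 2 and the library labelled RNAi of replicate 2, so its difference was that of a single high library. With *cyp-14A5* in the sum, the summed scaled count of *cyp-14* was higher in the libraries labelled RNAi (5008 and 7939, and 1154 and 2008 in mock), opposite to the sign of the median.

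The *cyp-25* genes were divided in a like manner. *cyp-25A1* and *cyp-25A2*, which are neighbours, were lower in both replicates, *cyp-25A4* was higher, and *cyp-25A3* and *cyp-25A6* stayed within a log2 fold change of 0.34 of 0. Scaled counts of *cyp-25A1* were 186 and 109 in mock against 103 and 13.1 in those labelled RNAi, so that the conditions did not overlap but met closely. The group medians were -0.13 and 0.09 (-0.30 and -0.28 with TMM, so that the sign in replicate 2 depended on the scaling).

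In *cyp-29*, the most abundant gene was *cyp-29A2*, with scaled counts of 1756 and 691 in mock against 952 and 533 in those labelled RNAi. Its log2 fold change was -0.90 (standard error 0.29, adjusted p = 0.378, edgeR), and the conditions overlapped. *cyp-29A4* was the sparsest, with 5 and 11 reads in mock against 19 and 38 reads in those labelled RNAi. It was the only *cyp-29* gene above 0 in both replicates.

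The *cyp-35* genes, which respond to foreign compounds, differed widely between the mock libraries, all but *cyp-35B1*. Their summed scaled count was 25309 in mock replicate 1, 5909 and 2249 in the libraries labelled RNAi of replicates 1 and 2, and 1494 in mock replicate 2. The group made up 54.6% of all *cyp* scaled counts in mock replicate 1 and 7.33% in mock replicate 2. Of the 8 genes, 7 were at least 2-fold lower in mock replicate 2 than in mock replicate 1, and 0 were at least 2-fold higher. Among all 63 members, 19 were at least 2-fold lower in mock replicate 2 (30.2%, beside 17.6% of all genes) and 10 at least 2-fold higher (15.9%, beside 9.83%).

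*cyp-35A2*, which has been linked to fat storage, had scaled counts of 11925 and 682 in mock against 3603 and 1201 in those labelled RNAi. Its log2 fold change was thus -1.72 in replicate 1 and 0.81 in replicate 2, and -0.73 over both (standard error 0.71, adjusted p = 0.764, edgeR). *cyp-35A4* reversed more widely, with 852 and 14.6 in mock against 118 and 107 in those labelled RNAi, or -2.77 and 2.35. In both genes the mock libraries lay on either side of those labelled RNAi.

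*cyp-35A3* showed the largest difference between the mock libraries of any member. It had scaled counts of 5563 and 63.5 in mock, an 87.6-fold difference, and of 516 and 56.5 in the libraries labelled RNAi. The log2 difference of replicate 2 from replicate 1 over both conditions was -4.82 (standard error 1.02, adjusted p = 0.520, edgeR). *cyp-35A5* was similar in order, with 1151 and 77.0 in mock against 136 and 75.7 in those labelled RNAi, and *cyp-35C1* had 5713 and 618 in mock against 1416 and 706 in those labelled RNAi. In replicate 2 these 3 genes had log2 fold changes between -0.15 and 0.19.

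The remaining *cyp-35* genes were scarce. *cyp-35A1* had 29 and 0 reads in mock against 55 and 25 reads in those labelled RNAi, and *cyp-35B1* had 26 and 19 reads in mock against 51 and 56 in those labelled RNAi. They were the only *cyp-35* genes above 0 in both replicates. The medians of the 8 genes were -1.87 in replicate 1 and 0.50 in replicate 2 (-2.04 and 0.14 with TMM).

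*cyp-42A1*, of the CYP4-like kind, followed the order of *cyp-35*. Its scaled counts were 3975 in mock replicate 1, 1436 and 566 in the libraries labelled RNAi of replicates 1 and 2, and 66.6 in mock replicate 2. The log2 fold changes were -1.46 and 2.94. The sum of the hypodermal list had the same order of the libraries, but *elt-3* and *col-10* of that list did not. Intestinal genes summed to 199387 and 286102 in mock against 187423 and 163726 in those labelled RNAi. That sum rested mostly on *asp-1* and *act-5*, and its genes went different ways. Of the 8, 3 were below 0 in both replicates (beside 16.6% of all genes) and 2 above 0 in both (beside 49.1%). *pept-1* had 14469 and 19270 in mock against 5278 and 4429 in those labelled RNAi, while *elt-7* had 352 and 286 against 432 and 644. The part of the hypodermal and stage lists in these differences was not tested, and in RNA of whole animals fewer cells of a type and less RNA per cell cannot be told apart.

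Of the 4 *cyp-31* and *cyp-32* genes, 3 had the opposite order of the mock libraries, all but *cyp-32B1*. CYP-31A2 and CYP-31A3 are needed redundantly for lipids of the eggshell, and their genes are near-identical copies, between which the counting may have split reads. *cyp-31A2* had scaled counts of 433 and 2314 in mock against 1142 and 2542 in those labelled RNAi, and *cyp-31A3* had 431 and 1287 in mock against 1060 and 2076 in those labelled RNAi. Mock replicate 1 was the lowest library for both, and the mock library of replicate 2 was above the library labelled RNAi of replicate 1. The log2 fold changes were 0.49 (standard error 0.47, adjusted p = 0.758) and 0.72 (standard error 0.34, adjusted p = 0.515) by edgeR.

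*cyp-32A1*, which is not a copy of these, had scaled counts of 29.8 and 400 in mock against 238 and 339 in those labelled RNAi. Germline genes summed to 57521 and 114869 in mock against 95407 and 118537 in those labelled RNAi, also lowest in mock replicate 1. Of that list, *gld-1*, *pgl-1* and *him-3* were lowest there too, but *glh-1* was lowest in the library labelled RNAi of replicate 2, at 20854. The part of germline genes in the values of the *cyp-31* and *cyp-32* genes was not tested. The medians of the 4 *cyp-31* and *cyp-32* genes were 1.33 in replicate 1 and 0.41 in replicate 2 (1.16 and 0.03 with TMM).

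**Figure D4:**
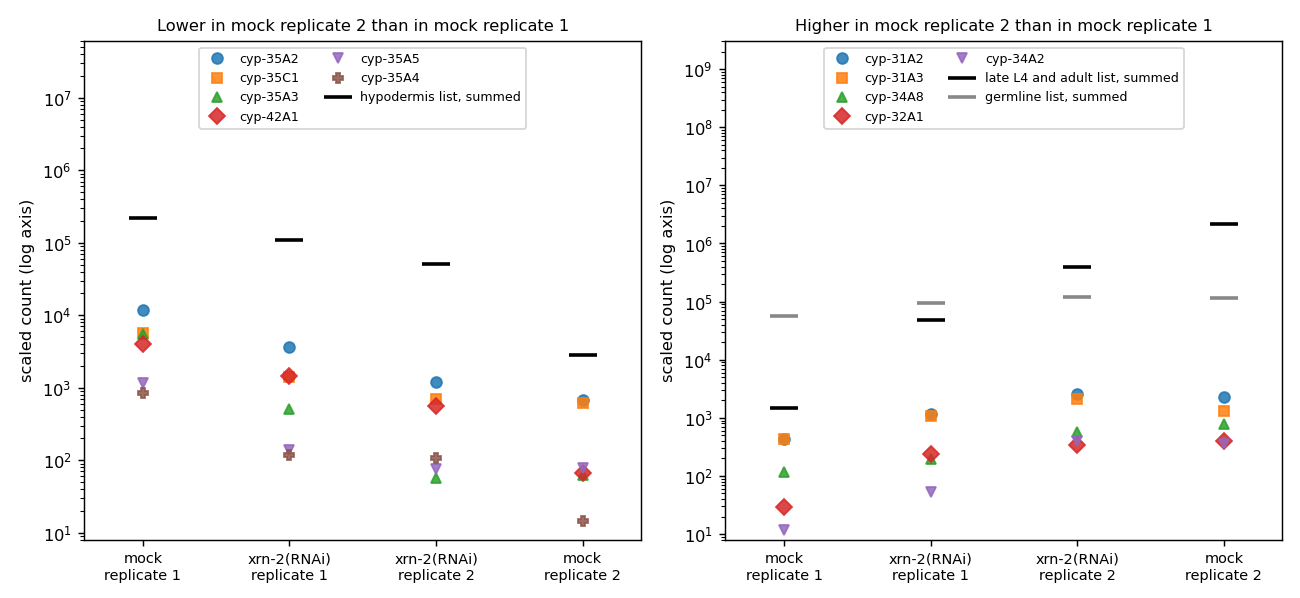
Scaled count (log axis) in the 4 libraries of *cyp* genes that were lower (left) or higher (right) in mock replicate 2 than in mock replicate 1, chosen after their values were seen, with summed marker lists as horizontal dashes. On the left each gene is highest in mock replicate 1, from 11925 for *cyp-35A2*, and on the right each is lowest there, with the libraries labelled RNAi mostly in between.

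Of the 7 *cyp-34* genes, 6 are neighbours, *cyp-34A5* to *cyp-34A10*. In replicate 2, 5 of these 6 (all but *cyp-34A8*) had log2 fold changes between 1.37 and 2.35, and in replicate 1 the same 5 lay between -0.56 and -0.08. With TMM scaling they lay between 1.00 and 2.07 in replicate 2 and between -0.73 and -0.14 in replicate 1. *cyp-34A9* had scaled counts of 649 and 191 in mock against 438 and 507 in those labelled RNAi, and *cyp-34A6* had 79.8 and 69.7 in mock against 65.9 and 219 in those labelled RNAi. For *cyp-34A5*, *cyp-34A6*, *cyp-34A7* and *cyp-34A10* the library labelled RNAi of replicate 2 was the highest of the 4. These genes are close relatives, so that reads could be shared between them.

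*cyp-34A8*, the most abundant of the run per exon length, differed more between the replicates than between the conditions. Its scaled counts were 116 and 777 in mock against 196 and 580 in those labelled RNAi. *cyp-34A2*, which lies apart from the run, had 11.7 and 356 in mock against 52.3 and 403 in those labelled RNAi, and its log2 difference of replicate 2 from replicate 1 was 3.87 (standard error 0.80, adjusted p = 0.520, edgeR). For both genes the 2 libraries of replicate 2 were above those of replicate 1. The medians of the 7 *cyp-34* genes were -0.13 in replicate 1 and 1.55 in replicate 2 (-0.29 and 1.18 with TMM).

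Between the replicates over both conditions, edgeR also called 0 of the 60 members, as it did 0% of all genes, with 12 at an unadjusted p under 0.05 (5 higher in replicate 2 and 7 lower, beside 5.27% and 4.04% of all genes, or 9.31% in either direction). The 5 higher were *cyp-25A3*, *cyp-31A2*, *cyp-31A3*, *cyp-34A2* and *cyp-34A8*, and the 7 lower were *cyp-13B1*, *cyp-14A4*, *cyp-23A1*, *cyp-29A2*, *cyp-35A2*, *cyp-35A3* and *cyp-35C1*. DESeq2 called 19 members, 7 higher and 12 lower in replicate 2, beside 8% and 6.84% of all genes, or 14.8% in either direction. Between the 2 libraries labelled RNAi, 12 members were at least 2-fold higher in replicate 2 (beside 8.65% of all genes), 6 of them *cyp-34* genes, and 10 were at least 2-fold lower (6.17%), 4 of them *cyp-13* genes. The comparisons of replicates and of conditions use the same 4 libraries.

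The *cyp-13* genes showed no common direction, with medians of 0.06 and 0.42 (-0.10 and 0.22 with TMM). *cyp-13A6* had the widest reversal of all members, with scaled counts of 73.4 and 1688 in mock against 596 and 118 in those labelled RNAi, or log2 fold changes of 2.89 and -3.75. Mock replicate 2 and the library labelled RNAi of replicate 1 were the high ones. *cyp-13A12*, which acts in the behavioural response to reoxygenation, had 109 reads in mock replicate 1, 19 in mock replicate 2, and 20 and 13 in the libraries labelled RNAi, so that a single library was high. *cyp-13A1* and *cyp-13B2* were above both mock libraries in the libraries labelled RNAi at few reads, with 25 and 16 reads in mock against 55 and 83 in those labelled RNAi for *cyp-13A1*.

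The 15 *cyp-33* genes had medians near 0, at -0.05 and 0.18 (-0.21 and -0.21 with TMM, which changed the sign in replicate 2). Besides *cyp-33D3*, *cyp-33C5* and *cyp-33C9*, the gene furthest from 0 was *cyp-33E2*, another P450 known to make eicosanoids from fatty acids. It had scaled counts of 585 and 273 in mock against 217 and 178 in those labelled RNAi, with a log2 fold change of -1.30 (standard error 0.41, adjusted p = 0.378, edgeR), and the conditions did not overlap. *cyp-33C7* and *cyp-33C8* were alike in both replicates, with log2 fold changes of 0.66 and 0.62 for *cyp-33C7* and of 0.61 and 0.61 for *cyp-33C8*. *cyp-33A1*, the most abundant of the group per length, had scaled counts of 742 and 560 in mock against 716 and 634 in those labelled RNAi, which overlapped.

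Of the genes of smaller kinds, *cyp-43A1* was lower in both replicates, with scaled counts of 1574 and 983 in mock against 1014 and 574 in those labelled RNAi and a log2 fold change of -0.97 (standard error 0.29, adjusted p = 0.353, edgeR). The conditions overlapped with library totals and not with TMM. *cyp-36A1*, which acts in the hypoxia response downstream of EGL-9, had 295 and 327 in mock against 266 and 230 in those labelled RNAi, with -0.60 (standard error 0.42, adjusted p = 0.664, edgeR). *cyp-37A1* had 1290 and 642 in mock against 1236 and 861 in those labelled RNAi, and *cyp-23A1* had 693 and 217 in mock against 538 and 306 in those labelled RNAi. In these latter genes the mock libraries lay on either side of those labelled RNAi. Exons of *cyp-33E3*, *cyp-36A1*, *cyp-37A1*, *cyp-37B1* and *cyp-43A1* overlap those of a gene on the opposite strand, so that reads may be shared.

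**Figure D5:**
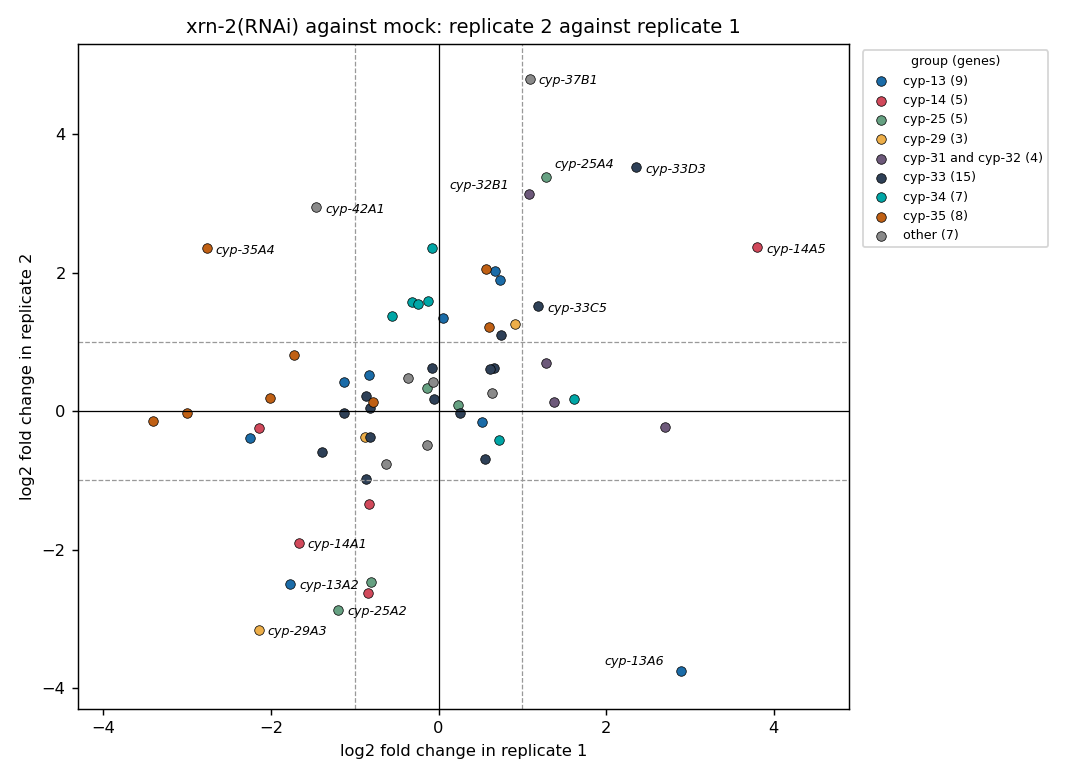
Log2 fold change of the 63 *cyp* genes in replicate 2 against that in replicate 1, coloured by group; each point is 1 gene and dashed lines mark 2-fold. 6 genes lie beyond 2-fold in the upper right corner and 4 in the lower left, and *cyp-13A6*, *cyp-35A4* and *cyp-42A1* have large values of opposite sign.

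The study asked how XRN2 affects genes within operons, where a downstream gene is transcribed from the promoter of an upstream gene. Of the members, 4 are first or second genes of 3 operons in the WormBase annotation it used. Later positions in operons were not looked at. In the operon of *cyp-13A2* and *cyp-13A1* both genes are P450s. The first, *cyp-13A2*, had log2 fold changes of -1.77 and -2.49 in the replicates, and the second, *cyp-13A1*, of 0.74 and 1.90. The adjusted p of *cyp-13A1* over both replicates was 0.501 by edgeR and 0.183 by DESeq2. *cyp-25A4* is the second gene after *brc-1*, the ortholog of BRCA1, which was also higher, with scaled counts of 526 and 1103 in mock against 1593 and 3690 in those labelled RNAi and log2 fold changes of 1.58 and 1.73, beside 1.28 and 3.38 for *cyp-25A4*.

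*cyp-44A1*, which resembles mitochondrial P450s, is the second gene after *fzy-1*, the ortholog of the cell-cycle activator Cdc20. It had scaled counts of 793 and 1096 in mock against 1240 and 1311 in those labelled RNAi, with log2 fold changes of 0.64 and 0.26. The values of *fzy-1* were 0.86 and 0.45. With TMM scaling *cyp-44A1* was at 0.47 and -0.13, so that its sign in replicate 2 depended on the scaling. Its exons overlap those of *npp-24* on the same strand.

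Genes that serve the P450s were lower in the libraries labelled RNAi in several cases, although edgeR called 0 genes of any list described here at an adjusted p under 0.05. These lists were chosen with results of these data known. Of all genes, 16.6% were below 0 in both replicates with library totals and 29.6% with TMM scaling. At an unadjusted p under 0.05 by edgeR 5.83% of all genes were lower, and 8.9% were called lower by DESeq2. Of the 5 redox partners, 3 were below 0 in both replicates, and *emb-8* and *cytb-5.1* had an unadjusted p under 0.05 and were called by DESeq2. *emb-8*, the reductase gene, had scaled counts of 11797 and 9755 in mock against 5001 and 4979 in those labelled RNAi, with a log2 fold change of -1.38 (standard error 0.25, adjusted p = 0.255, edgeR). The conditions did not overlap. *cytb-5.1*, a cytochrome b5 gene, had 4558 and 1672 in mock against 2353 and 1086 in those labelled RNAi, which did.

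All 6 genes of a list on heme supply, the worm being unable to make heme, were below 0 in both replicates with library totals, and 5 had an unadjusted p under 0.05 by edgeR, while DESeq2 called all 6. Their median log2 fold changes were -0.80 and -1.43, beside 0.17 and 0.37 for all genes. *hrg-2*, a hypodermal heme protein gene, had scaled counts of 1093 and 461 in mock against 41.5 and 29.3 in those labelled RNAi, with a log2 fold change of -4.62 (standard error 0.44, adjusted p = 0.254, edgeR). *hrg-4*, an intestinal heme transporter gene, had 3138 and 2210 in mock against 550 and 172 in those labelled RNAi. For all 6 genes both libraries labelled RNAi were below both mock libraries with library totals. This held for 10.3% of all genes with library totals, and for 20% with TMM scaling. Intestinal and hypodermal marker sums are given above, and their part in these differences was not tested.

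Both epoxide hydrolase genes, whose products act on epoxides that P450s make, were below 0 in both replicates. *ceeh-2* had scaled counts of 487 and 364 in mock against 154 and 194 in those labelled RNAi, and *ceeh-1* had 499 and 556 in mock against 373 and 337 in those labelled RNAi. DESeq2 called *ceeh-2* and edgeR gave it alone an unadjusted p under 0.05. Of 5 flavin monooxygenase genes, whose enzymes oxidise foreign compounds without heme, 3 were below 0 in both replicates and *fmo-1* was above 0 in both. *fmo-3* had 3798 and 1235 in mock against 1215 and 468 in those labelled RNAi, with a log2 fold change of -1.79 (standard error 0.24, adjusted p = 0.254, edgeR). It was the only gene of its list with an unadjusted p under 0.05 by edgeR (beside 12.5% of all genes in either direction). DESeq2 called it and *fmo-1* (beside 17% of all genes).

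Among 14 regulators of foreign compound and fat metabolism, 8 were above 0 in both replicates and 2 were below 0 in both, beside 49.1% and 16.6% of all genes, with medians of 0.04 and 0.43. The 2 with an unadjusted p under 0.05 by edgeR (beside 12.5% of all genes in either direction) went in opposite directions. DESeq2 called them and *hif-1* (beside 17% of all genes), with an edgeR log2 fold change of -0.64 for *hif-1*. *pqm-1*, a zinc finger factor of the stress response, had scaled counts of 826 and 1066 in mock against 2804 and 3969 in those labelled RNAi, with a log2 fold change of 1.56 (standard error 0.23, adjusted p = 0.254, edgeR). *nhr-114*, a nuclear receptor gene, had 3430 and 1515 in mock against 624 and 551 in those labelled RNAi, with -2.23 (standard error 0.33, adjusted p = 0.254, edgeR).

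The dafachronic acid pathway, which makes the steroid hormone of the receptor DAF-12, includes *daf-9*, a P450 gene whose symbol keeps it outside the 63. *daf-9* had scaled counts of 141 and 183 in mock against 91.1 and 170 in those labelled RNAi, which overlapped. *daf-36*, the Rieske oxygenase gene of the first step, was lower, with 950 and 1007 in mock against 266 and 159 in those labelled RNAi and a log2 fold change of -2.52 (standard error 0.44, adjusted p = 0.254, edgeR). Of the 9 genes of this list 2 were below 0 (beside 16.6% of all genes) and 2 above 0 (beside 49.1%) in both replicates, and *hsd-1* had 0 reads in both mock libraries. By edgeR *daf-36* and *hsd-1* had an unadjusted p under 0.05 (beside 12.5% of all genes in either direction), and DESeq2 called both (beside 17%).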

How the data were processed

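Polyadenylated RNA of whole N2 animals was sequenced in 4 libraries, 2 mock and 2 labelled *xrn-2(RNAi)*, prepared with a TruSeq mRNA kit. The authors used QuasR in spliced mode (ce10) and counted the reads over the exons of each WS220 gene. The deposited values are raw counts, neither normalized nor pooled. How reads matching several genes were treated is not given in the sources used here. Samples were grouped by their titles.

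Symbols were looked up by gene identifier, and 19179 of 20380 had one. Exon lengths (available for all 63 members), gene neighbours and overlaps came from the WBcel235 annotation, which differs from ce10, and coordinates and sequences were left out.

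Libraries were brought to their mean total and 8 was added before the log2, as in the study's methods. Genes were tested with edgeR 4.0.16 (glmQLFit and glmQLFTest, TMM, filterByExpr, Benjamini-Hochberg) in R 4.3.3 with the replicate as a block, since the study's fold changes are within a replicate. Libraries with the same number shared their deviations from the group means (r = 0.57 across 16178 genes, which are not independent, and 0.49 across the tested members). Standard errors were derived from the F statistic, as |log2 fold change|/√F. An exact two-sided permutation of 2 and 2 libraries reaches p = 0.333 at best and was not used. The fit was tested on simulated counts with known changes, which had the same spread for every gene and no replicate effect, unlike these libraries. It recovered nearly all of them at a small spread, but few at the spread estimated from these libraries. A count of 0 genes called by edgeR therefore does not show that genes were unaltered.

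Alternatives were DESeq2 1.42.0, other scalings and filters, a pseudocount of 1, no block and leaving out libraries or replicates. DESeq2 without a filter on low counts was added after seeing the data. A rule named 29 members. It took those past the threshold (0), the most abundant of each group, and the 6 highest and 6 lowest of the same sign in both replicates. It also took the 4 most different between mock libraries, first or second genes of operons and genes with a known role. Other members were named after their values were seen. The members, the lists and the rule were chosen with earlier results of these data known. Depth is the total count per library (41105706 to 48451504). Counts do not correct for duplicate molecules, and low members are limited by counting.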

Additional observations from a re-analysis of the deposited data

How the results depend on the processing

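The count of *cyp* genes past an adjusted p of 0.05 was 0 in edgeR with the 2 other scalings, with low genes kept in, without the replicate block and without each library in turn (lowest 0, highest 0). With DESeq2 it was 15 between the conditions and 19 between the replicates, and with DESeq2 without a filter, chosen after seeing the data, 6 and 6. The smallest adjusted p over the members was 0.256 without the replicate block, against 0.255 with it, and the block changed no call. The mean of the group's medians in both replicates moved beyond its spread in these cases. For *cyp-14* it was -1.61 with a pseudocount of 1, against -1.09. TMM and median-of-ratios scaling gave -0.22 and -0.21 for all members (0.04 with library totals), -0.29 and -0.29 for *cyp-25* (-0.02), and -0.21 and -0.20 for *cyp-33* (0.06). A minimum mean scaled count of 50 gave -0.049 for *cyp-13* (0.24 without it), -1.64 for *cyp-29* (-0.62) and 0.36 for *cyp-33*, and 13 genes in place of 20 at least 2-fold higher in replicate 2. No minimum count gave -0.11 for *cyp-13*. With either replicate alone the medians ranged from -0.13 to 0.21 for all members, 0.06 to 0.42 for *cyp-13*, -1.34 to -0.85 for *cyp-14*, -0.13 to 0.09 for *cyp-25*, -0.88 to -0.37 for *cyp-29*, 0.41 to 1.33 for *cyp-31* and *cyp-32*, -0.05 to 0.18 for *cyp-33*, -0.13 to 1.55 for *cyp-34*, -1.87 to 0.50 for *cyp-35* and -0.14 to 0.42 for the other genes.

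Of the single-gene values recomputed under the alternatives, 292 kept their direction and their side of the threshold, 18 passed it with DESeq2 and 26 had another sign. Fits without 1 library also lack the replicate block, since 3 libraries leave no residual with it. Without mock replicate 1 the log2 fold change was -0.68 for *cyp-31A2*, -0.062 for *cyp-31A3*, 1.51 for *cyp-35A2*, 1.88 for *cyp-35A3*, 2.61 for *cyp-35A4*, 0.15 for *cyp-35A5*, 0.39 for *cyp-37A1* and -0.11 for *cyp-44A1*. Without mock replicate 2 it was 2.09 for *cyp-13A6*, 1.49 for *cyp-34A8* and -2.19 for *cyp-42A1*. Without the library labelled RNAi of replicate 2 it was -0.57 for *cyp-31A2*, 0.13 for *cyp-37A1* and -0.66 for *cyp-42A1*, and without that of replicate 1, -2.11 for *cyp-42A1*. Values of 1 replicate alone use library totals, not TMM. In replicate 1 alone it was 2.89 for *cyp-13A6*, 0.72 for *cyp-34A8* and -1.46 for *cyp-42A1*, and in replicate 2 alone 0.18 for *cyp-33A1*, 0.81 for *cyp-35A2*, 2.35 for *cyp-35A4* and 0.42 for *cyp-37A1*. With TMM, replicate 2 alone gave -0.21 for *cyp-33A1*, so that its sign followed the scaling. Total-count scaling gave 0.063 for *cyp-33A1*, 0.16 for *cyp-34A8* and 0.18 for *cyp-37A1*. For *cyp-42A1*, all 4 libraries gave -1.21 without the replicate block, against 0.49 with it (standard error 1.44). Its fits without a library also lack the block, so the parts of the block and of the left-out library cannot be told apart. The causes of these changes were not tested. In fits without a library the lone library of a condition is assumed to vary like the others. Low counts limit the scarce members, and the spread between replicates limits the rest.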
